A study of Homo sapiens with 24 samples.

Results

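The change in RWPE1 cells between 6 and 24 h of culture without hormone was read from 8 of the 24 arrays of the series. They are the 4 arrays labelled vehicle, 24 h and the 4 labelled vehicle, 6 h, chosen by these labels alone, and all 12010 genes that could be tested were examined. RWPE1 is a human prostate epithelial line, immortalized and non-tumorigenic, that is grown in serum-free keratinocyte medium with added insulin, EGF and FGF. Flasks at 60% confluence were given medium with 0.1% ethanol, the vehicle, and were harvested 24 h or 6 h later. The other arrays of the series hold cells given 1,25(OH)2D (100 nM of 1,25-dihydroxyvitamin D, the active vitamin D hormone) for 6, 24 or 48 h and vehicle cells at 48 h, whose medium was replaced at 24 h, with 4 arrays in each of the 6 groups. All groups are of 1 line, and the labels call the 4 arrays of a group biological replicates, so p-values measure the spread between such replicates of that line. Hours in culture, hours since fresh medium and the number of cells in the flask cannot be told apart in this design. Each array read the RNA of a whole culture, so a change in the share of cells with a transcript and a change per cell cannot be told apart either.

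Cells of this kind divide under the drive of added growth factors until they fill the flask. As they do so they use up amino acids and glucose, condition the medium with their own secreted signals, and touch more neighbours. Transcript programmes read below include the ATF4 response to amino acid shortage and the FOXO genes that answer growth factors. Others are the interferon response, the feedback inhibitors of the MAP kinase pathway, and the genes of ribosome production and cell division. The arrays do not measure the events themselves.

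The arrays carried basal and general epithelial markers. KRT14 and KRT5, the keratins of basal cells, were at 16.08 and 15.32 at 24 h, and at 16.10 and 15.30 at 6 h (mean log2 intensity). Of the 7 basal markers listed, 6 were tested, with means of 10.43 or more in both groups. The luminal markers listed were at the bottom of the scale. Of these, 5 were on the arrays under a single symbol, all under a mean of 5, and only KLK3 was tested. The keratins KRT8 and KRT18, listed as general epithelial and not as luminal markers, were bright. They were at 12.93 and 14.33 at 24 h and at 12.58 and 14.3 at 6 h. Leukocyte and neuroendocrine markers (4 of each on the arrays) were also all under 5. Of 8 fibroblast markers 5 were under 5, while VIM and COL1A1 were bright at both times (13.98 and 10.18 at 24 h, 14.22 and 9.99 at 6 h). The endothelial marker KDR, the main VEGF receptor, was the only marker of another cell type that changed. It was at 4.67, 5.63, 4.97 and 4.79 at 24 h and at 3.57, 3.01, 3.10 and 3.97 at 6 h, a rise of 1.60 (adjusted p = 0.0207, up to 0.0718 with single arrays left out), and the other 4 endothelial markers were under 5 at both times.

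Replicate 1 stood apart in both groups. The median of its tested probe sets was 6.893 at 24 h, against 7.099 to 7.186 in the other 3 arrays, and 6.884 at 6 h, against 7.134 to 7.189. Same-numbered arrays deviated from their group means together (correlations of 0.268 to 0.823), but replicates 2, 3 and 4 did so across numbers as well (0.284 to 0.688), and only replicate 1 was set apart by its number. Counts are also given from a fit that blocks on the replicate number and from one without both replicates 1. The leading component of the deviations from group means was taken over all 24 arrays of the series. It held 71.9% of the variance within groups. Its largest scores were in cells given hormone for 24 h (0.544 in replicate 4 and -0.413 in replicate 1). Replicate 1 in vehicle followed, at 0.36 at 24 h and 0.346 at 6 h. Across the 12010 genes, the change from 6 to 24 h in vehicle had a correlation of 0.211 (Pearson) with the loading on this component.

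Of 26000 probe sets, 1124 (4.32%) differed between 24 h and 6 h at a Benjamini-Hochberg adjusted p under 0.05 in limma, 513 higher and 611 lower at 24 h. With the replicate number as a block there were 4154 (1936 higher and 2218 lower), and without both replicates 1 there were 4136 (1944 and 2192). Of the 1124, 1122 kept their call and direction under the block and 1109 without replicates 1. Among the genes, each read by its brightest tested probe set, 310 rose (2.58%) and 280 fell (2.33%), against 1156 (9.63%) and 1028 (8.56%) under the block. The list counts below are to be read beside these shares, each in its own fit. The groups of all 590 called genes did not overlap. This held for 922 higher (7.68%) and 810 lower genes (6.74%) among all those tested. Of the called genes, 225 rose and 173 fell by over 1.5-fold, and 75 rose and 54 fell by over 2-fold. The median change over all genes was -0.01 on the log2 scale. The count was 258 to 555 when replicate 2, 3 or 4 of either group was left out (258 without replicate 4 at 24 h, 292 without replicate 3 at 24 h, 310 without replicate 2 at 6 h, 455 and 507 without replicates 3 and 4 at 6 h, 555 without replicate 2 at 24 h), 1192 without replicate 1 at 24 h and 1655 without replicate 1 at 6 h.

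STC2 and CHAC1 had the largest rises, and MMP3 and AKAP12 the largest falls. STC2, a secreted glycoprotein of the stress response, was at 8.72, 9.47, 8.74 and 9.13 at 24 h (replicates 1 to 4, log2 intensity) and at 4.46, 5.80, 6.42 and 6.12 at 6 h. It rose by 3.31 (standard error 0.41, adjusted p = 0.00846), or 9.94-fold, and its lowest 24 h array lay well above its highest 6 h array. CHAC1, which degrades glutathione, was at 8.94, 8.40, 8.29 and 8.31 at 24 h and at 5.47, 5.36, 5.40 and 5.13 at 6 h (change 3.15 ± 0.16, SE, 8.86-fold). The chemokine CCL2, which draws monocytes, was at 5.57, 5.58, 4.80 and 5.30 at 24 h and at 2.74, 2.82, 2.68 and 2.57 at 6 h (2.61 ± 0.18, SE). All 4 arrays at 6 h were at the bottom of the scale, where the fold depends on the background left in the values. GDF15, a stress cytokine, was at 6.77, 5.36, 5.63 and 5.64 at 24 h and at 3.87, 3.76, 3.10 and 3.10 at 6 h (2.39 ± 0.33, SE), and replicate 1 was the highest array in both groups.

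Other large rises were in HCAR3 (2.31), IFI44L (2.08), WNT4 (2.03), FOS (1.99), TXNIP (1.96), MXRA5 (1.83), GRB7 (1.72) and ATF3 (1.71). HCAR3, a receptor for hydroxylated fatty acids, was at 5.81, 4.88, 4.48 and 5.18 at 24 h, against 2.79, 2.59, 2.93 and 2.80 at 6 h, and its close copy HCAR2 may share the probes. WNT4, a Wnt ligand, was at 7.02, 5.70, 5.66 and 5.67 at 24 h, against 4.37, 3.99, 3.10 and 4.47 at 6 h, so that replicate 1 alone was high at 24 h. GRB7, an adaptor of ERBB receptors, was at 7.89, 6.90, 7.14 and 7.13 at 24 h and at 6.38, 5.80, 4.76 and 5.24 at 6 h. MXRA5, a matrix protein, was at 5.81, 5.95, 6.00 and 6.63 at 24 h and at 3.30, 4.45, 4.33 and 4.99 at 6 h. When arrays were left out in turn, the adjusted p reached 0.11 for GRB7, 0.104 for IFI44L, 0.1 for WNT4 and 0.0944 for MXRA5, and stayed under 0.05 for the other 8 of the 12 largest rises.

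MMP3 had the largest fall. This stromelysin, a protease of the matrix, was at 2.59, 2.54, 2.43 and 2.43 at 24 h and at 7.18, 6.64, 6.54 and 6.34 at 6 h, a fall of 4.18 on the log2 scale (standard error 0.17, adjusted p = 2.09e-04). AKAP12, a scaffold of protein kinase A, was at 2.46, 2.44, 2.38 and 2.43 at 24 h, against 5.22, 6.43, 7.44 and 6.75 at 6 h. Its change was -4.03, and its 3 dimmer probe sets gave -2.13, -1.26 and -0.06 with no call. NANOS1, which represses translation of its target messages, was at 3.71, 3.66, 3.61 and 3.98 at 24 h and at 6.99, 7.11, 7.21 and 6.63 at 6 h. RGCC, a regulator of the cell cycle, was at 2.69, 2.91, 2.65 and 2.88 at 24 h and at 6.85, 5.98, 5.27 and 5.70 at 6 h. MMP3, AKAP12, RGCC and GREM1 were thus at the bottom of the scale in every 24 h array and clearly above it in every 6 h array. None of them would have been tested by its 24 h vehicle arrays, since 3 arrays of a group had to reach 3.203. GREM1 passed through its vehicle 6 h arrays, where it is high, so the filter itself favours a fall for it. GREM1, an antagonist of bone morphogenetic proteins, was at 2.13 to 2.17 at 24 h and at 4.50, 4.37, 5.49 and 4.39 at 6 h.

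**Figure D1:**
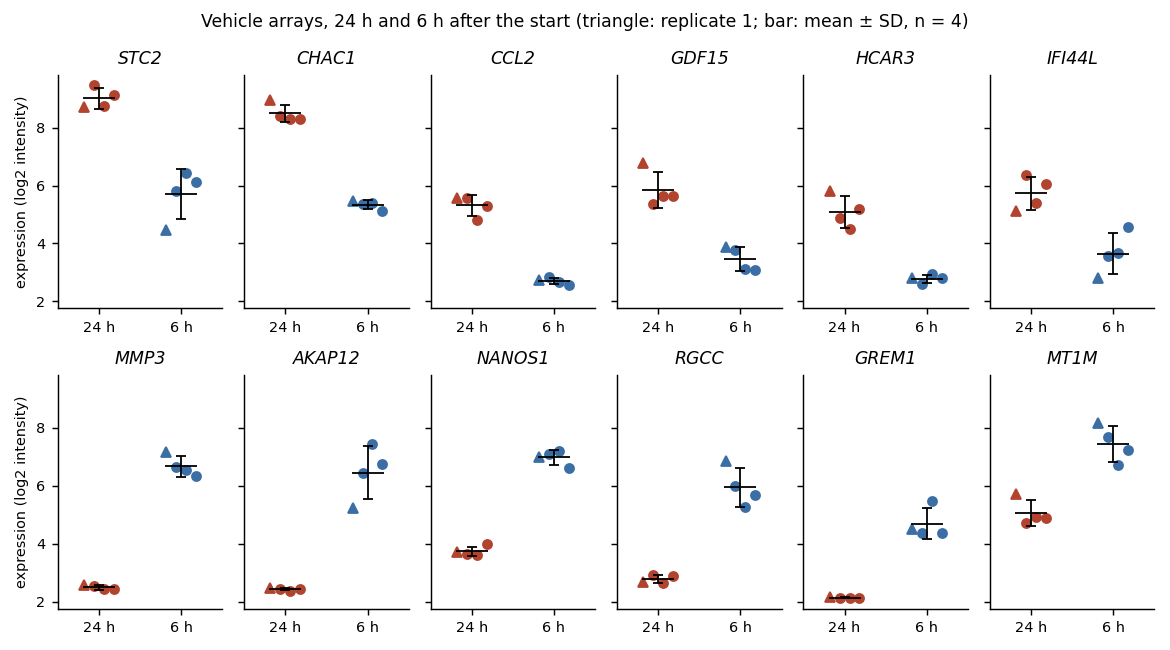
Expression (log2 intensity) of the 6 genes with the largest rises (top row) and the 6 with the largest falls (bottom row) in each vehicle array, 24 h at the left and 6 h at the right of each panel, with the mean ± SD of 4 arrays and triangles for replicate 1. No panel has overlapping groups, which was a condition of the choice of genes, and MMP3, AKAP12, RGCC and GREM1 lie under 3 in all 24 h arrays.

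The remaining large falls were in MT1M (-2.39), HMGA2 (-2.22), GLIPR1 (-2.11), DKK1 (-1.93), KCNJ15 (-1.70), RGS20 (-1.69) and MICAL2 (-1.64). HMGA2, a chromatin protein of growing and embryonic cells, was at 5.32, 6.87, 6.60 and 6.93 at 24 h and at 7.92, 8.60, 9.22 and 8.85 at 6 h, with replicate 1 the lowest array of each group. Its 2 other tested probe sets gave 0.14 and -0.12 and were not called. The dimmer probe sets of KCNJ15 and RGS20 gave -0.25 and -0.05, also with no call. DKK1, a secreted Wnt antagonist, was at 9.85, 9.99, 9.64 and 9.76 at 24 h and at 11.83, 11.50, 12.11 and 11.52 at 6 h. MICAL2, an oxidase that takes actin filaments apart, was at 10.07, 9.69, 9.41 and 9.51 at 24 h and at 11.12, 11.23, 11.50 and 11.37 at 6 h. Every 24 h value of the large falls lay under every 6 h value, which was a condition of their choice. GLIPR1 was at 2.98 in replicate 1 and at 4.39 to 4.84 in the other 24 h arrays. Across the fits that each lacked 1 array, the adjusted p reached 0.0914 for GLIPR1, 0.0857 for HMGA2 and 0.0502 for MT1M.

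In the amino acid response, 8 of 29 genes tested rose and 0 fell. ATF4 is the factor that stress kinases turn on through translation when amino acids are short, and it raises amino acid transporters, synthetic enzymes, the factor ATF3 and the enzyme CHAC1. Of the 29, from 31 listed, 24 were above 0 and 5 below, with a median change of 0.37. The calls stand against 2.58% and 2.33% of all genes and a median of -0.01. Under the block 13 rose and 0 fell, beside 9.63% and 8.56% of all genes in that fit. Without replicates 1 the median was 0.36. ATF4 itself was at 13.59, 13.61, 13.60 and 13.56 at 24 h and at 13.02, 13.11, 13.29 and 13.19 at 6 h, a rise of 0.44 (adjusted p = 0.0258), although this response is known to act on ATF4 mainly through translation. ATF3, a stress factor, was at 6.71, 6.44, 6.40 and 6.35 at 24 h and at 5.01, 4.74, 4.94 and 4.37 at 6 h, a rise of 1.71. Its 1 other tested probe set, which is dimmer, gave 0.27 with no call (adjusted p = 0.0993). SESN2, a sensor of leucine that holds back the mTOR kinase, rose by 1.36 (adjusted p = 0.00905). The lowest change of the list, looked up after its values were seen, was that of ASNS, which makes asparagine. It was at 13.10, 12.63, 12.66 and 12.52 at 24 h and at 13.75, 13.71, 12.27 and 13.18 at 6 h, with overlapping groups and no call (-0.50, adjusted p = 0.512). The aminoacyl-tRNA synthetases, also known targets of ATF4, had no call among 16 tested (median -0.03, 1 up and 1 down under the block). ATF4 lost its call when any of 5 single arrays was left out (adjusted p up to 0.0954), while STC2, CHAC1, ATF3 and SESN2 kept theirs in all 8 such fits.

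The promoters of CHAC1 and ATF3 are printed because both genes are among the 12 largest rises and their promoters hold the letters searched for ATF4, TGATGNAAN or TTGCATCA on either strand, shown in capitals. The 300 bases run from 250 before to 50 after the gene start (RefSeq, GRCh38.p14). The match begins 210 bases before the start in CHAC1, where both sets of letters overlap (chr15:40953221-40953520, plus strand) and 191 bases before it in ATF3 (chr1:212565157-212565456, plus strand).
CHAC1: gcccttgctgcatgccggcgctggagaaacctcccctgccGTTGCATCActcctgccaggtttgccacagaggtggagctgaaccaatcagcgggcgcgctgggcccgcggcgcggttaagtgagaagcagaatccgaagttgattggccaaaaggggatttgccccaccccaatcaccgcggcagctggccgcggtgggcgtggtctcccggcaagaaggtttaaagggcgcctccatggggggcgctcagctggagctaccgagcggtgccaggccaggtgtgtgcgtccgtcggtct
ATF3: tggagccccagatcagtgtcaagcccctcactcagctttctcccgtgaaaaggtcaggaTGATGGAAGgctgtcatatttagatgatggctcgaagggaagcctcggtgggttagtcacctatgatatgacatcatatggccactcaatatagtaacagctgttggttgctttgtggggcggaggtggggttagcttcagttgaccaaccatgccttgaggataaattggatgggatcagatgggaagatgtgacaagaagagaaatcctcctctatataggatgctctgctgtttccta
Such letters stood in 174 of the 9851 promoters matched by symbol to tested genes (1.77%), in 11 of the 245 promoters of genes that rose (4.49%), in 5 of the 24 on the amino acid list and in 2 of the 8 called there. A match is a description of the sequence and not a bound site.

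Of 37 interferon-stimulated genes tested, 14 rose and 0 fell. These genes are switched on when interferons bind their receptors and activate STAT and IRF proteins, which bind the interferon-stimulated response element in promoters. From 41 listed, 33 of the 37 changes were above 0, and the median change was 0.65. With the block 20 rose and 0 fell, and without replicates 1 the median was 0.59. IFI44L, an interferon-induced antiviral gene, was at 5.12, 6.36, 5.40 and 6.07 at 24 h and at 2.81, 3.57, 3.66 and 4.57 at 6 h. IFIH1, a sensor of double-stranded RNA, was at 6.52, 7.58, 7.12 and 7.20 at 24 h and at 5.60, 5.66, 5.54 and 5.99 at 6 h (change 1.41, adjusted p = 0.0155). BST2, which tethers virus particles to the cell, was at 7.63, 7.17, 6.96 and 7.14 at 24 h and at 5.75, 5.88, 5.65 and 6.15 at 6 h (1.37, adjusted p = 0.00797). The mean of the 37 members was 7.27 to 7.78 in the 24 h arrays and 6.80 to 7.02 in the 6 h arrays, with no overlap. The interferons, their receptors and signal proteins had no call among 14 tested (median 0.09, with 3 up and 2 down under the block). The block called 9.63% of all genes up and 8.56% down. Of 17 genes of MHC class I antigen processing, which shows peptides to T cells, 16 were above 0 (median 0.32), and HLA-B was called, with 13.14, 12.86, 12.84 and 13.01 at 24 h and 12.51, 12.37, 12.40 and 12.46 at 6 h (0.53, adjusted p = 0.0212). Probes of HLA-B can also read other class I genes. Without 1 array at a time, the adjusted p reached 0.104 for IFI44L, 0.0629 for IFIH1 and 0.0854 for HLA-B.

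The promoters of IFI44L, IFIH1 and BST2, the 3 interferon-stimulated genes with the largest called rises, each hold the core of the interferon-stimulated response element on either strand, a pair of GAAA runs parted by 2 bases of any kind, in capitals. They lie at chr1:78620198-78620497, plus strand, at chr2:162318635-162318934, minus strand and at chr19:17405581-17405880, minus strand (RefSeq, GRCh38.p14). Counting matches that overlap, IFI44L has 2, beginning 164 and 73 bases before the start, IFIH1 has 3, beginning 159, 153 and 21 bases before it, and BST2 has 2, beginning 130 and 124 bases before it.
IFI44L: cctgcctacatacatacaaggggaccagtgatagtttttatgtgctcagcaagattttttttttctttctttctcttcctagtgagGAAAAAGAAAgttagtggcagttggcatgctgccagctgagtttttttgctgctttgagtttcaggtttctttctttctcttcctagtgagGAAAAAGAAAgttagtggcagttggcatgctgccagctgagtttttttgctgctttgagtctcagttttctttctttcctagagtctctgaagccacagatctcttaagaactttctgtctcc
IFIH1: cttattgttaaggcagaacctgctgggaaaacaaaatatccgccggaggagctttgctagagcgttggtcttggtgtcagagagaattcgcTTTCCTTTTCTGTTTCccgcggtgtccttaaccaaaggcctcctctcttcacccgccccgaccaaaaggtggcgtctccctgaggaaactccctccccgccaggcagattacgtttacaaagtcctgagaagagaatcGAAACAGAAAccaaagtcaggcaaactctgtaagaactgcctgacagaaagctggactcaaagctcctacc
BST2: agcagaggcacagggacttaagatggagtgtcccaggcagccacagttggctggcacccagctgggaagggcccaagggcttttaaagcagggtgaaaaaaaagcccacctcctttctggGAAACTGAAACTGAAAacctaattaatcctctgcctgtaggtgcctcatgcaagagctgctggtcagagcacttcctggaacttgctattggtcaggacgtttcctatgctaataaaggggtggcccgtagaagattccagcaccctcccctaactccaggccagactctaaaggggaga
This core stood in 271 of 9851 promoters (2.75%), in 14 of the 245 of genes that rose (5.71%), in 20 of the 31 on the interferon list and in 8 of the 12 called there.

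**Figure D2:**
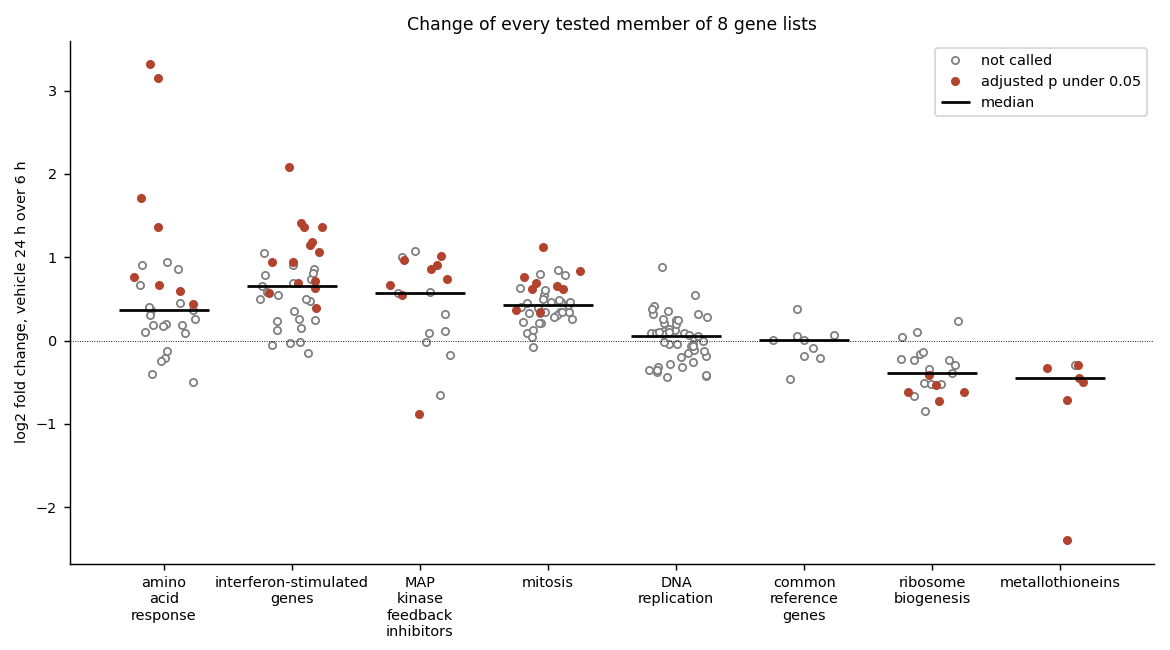
Log2 fold change, vehicle 24 h over 6 h, of every tested member of 8 gene lists, with filled points for an adjusted p under 0.05 and a line at the median of the list. The medians run from 0.65 for the interferon-stimulated genes to -0.45 for the metallothioneins, with 0.06 for DNA replication.

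Among 16 epithelial cytokines and chemokines tested of 28 listed, 3 rose and 1 fell. CCL2 is described above. CXCL14, a chemokine of normal epithelium, was at 12.52, 12.33, 12.20 and 12.23 at 24 h and at 11.07, 10.68, 10.59 and 11.45 at 6 h (1.37, adjusted p = 0.0116). TSLP, an alarm cytokine of barrier epithelium, was at 6.26, 6.56, 6.73 and 6.72 at 24 h and at 5.87, 5.88, 5.49 and 5.66 at 6 h (0.84). The inflammatory cytokine IL1B was lower, at 5.88, 6.02, 6.05 and 5.77 at 24 h and at 6.38, 6.40, 6.39 and 6.26 at 6 h (-0.43, adjusted p = 0.0375). NFKBIA, the inhibitor that NF-kB induces against itself, rose by 0.85 and was the only call among 12 genes of that pathway (median 0.13). In the fits with 1 array left out, the adjusted p reached 0.126 for IL1B, 0.0704 for TSLP and 0.0645 for NFKBIA.

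Of 41 mitotic genes tested, 9 rose and 0 fell, while no gene of DNA replication was called. Of the 41, 40 were above 0 and the median was 0.42, with 25 up and 0 down under the block. CDC25C, the phosphatase that starts mitosis, was at 9.89, 9.60, 9.81 and 9.78 at 24 h and at 8.89, 8.54, 8.60 and 8.57 at 6 h (1.12, adjusted p = 0.00309). KIF20A, a kinesin of cell cleavage, was at 12.06, 12.22, 12.26 and 12.24 at 24 h and at 11.24, 11.24, 11.54 and 11.43 at 6 h (0.83, adjusted p = 0.00625). NEK2, a kinase of the centrosome, was at 9.55, 10.06, 9.94 and 10.19 at 24 h and at 8.92, 9.22, 9.19 and 9.35 at 6 h (0.76, adjusted p = 0.0365, up to 0.112 with single arrays left out). FOXM1, the factor that drives mitotic genes, was at 11.41, 11.18, 11.12 and 11.16 at 24 h and at 10.66, 10.67, 10.88 and 10.95 at 6 h (0.42, adjusted p = 0.0697). The mean of the 41 members was lowest in replicate 1 of each group, at 10.37 against 10.87 to 10.98 at 24 h and at 9.94 against 10.43 to 10.55 at 6 h, so the groups overlapped unless replicates were compared with their own number. Without replicates 1 the median change was 0.40.

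Of 47 DNA replication genes tested of 48, none was called (median 0.06, 25 above 0), with 5 up and 4 down under the block. These block counts were near the shares of all genes in that fit, 9.63% up and 8.56% down. CDT1, which loads the replicative helicase, had the largest change of the list, with 11.77, 11.02, 11.05 and 11.02 at 24 h and 10.86, 10.46, 9.93 and 10.08 at 6 h (0.88, adjusted p = 0.101, 0.00979 under the block). CDC25A, the phosphatase of S phase entry, was the only call among 22 genes of G1 control and was lower, at 7.95, 8.08, 7.94 and 8.03 at 24 h and at 8.58, 8.59, 8.35 and 8.37 at 6 h (-0.47, adjusted p = 0.0283, up to 0.103 with single arrays left out). A separate list held histone genes outside replication control, with 6 tested. Its only call was H2AC6, which was lower (-1.27, adjusted p up to 0.0722 with single arrays left out). Probes of histone genes can read near-identical copies. In promoters, the cell cycle element TTTGAA or TTCGAA stood in 26 of 35 mitotic genes against 11.3% of all 9851, and CCAAT in 28 of 35 against 37.2%. Of the 7 promoters of called mitotic genes, 3 held the first and 5 the second.

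Of 18 feedback inhibitors of the MAP kinase pathway tested, 7 rose and 1 fell. These inhibitors are induced by growth factor signals and restrain them. Their median change was 0.58, with 14 above 0 (10 and 2 under the block). PHLDA1, a growth factor response gene, was at 11.02, 10.80, 10.61 and 10.70 at 24 h and at 9.89, 9.67, 9.82 and 9.68 at 6 h (1.02). Of its 5 other tested probe sets, all dimmer, that at 1.12 was called and the rest gave 0.57 to 0.85 with no call. SPRY1 and SPRY2, Sprouty inhibitors of receptor tyrosine kinase signals, rose by 0.97 and 0.91. SPRY2 was at 9.49, 9.67, 9.65 and 9.68 at 24 h and at 8.57, 8.68, 8.80 and 8.81 at 6 h. DUSP7, a phosphatase of ERK kinases, was lower, with a mean of 9.16 ± 0.09 at 24 h and 10.05 ± 0.14 at 6 h (SD, n = 4 each, -0.89, adjusted p = 0.00518). In each of these genes all 4 arrays at 24 h lay on the same side of the 6 h arrays, as in all 590 called genes.

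Of 21 immediate early factors tested, 4 rose, 0 fell and 17 were not called (median 0.16, 16 above 0). ATF3 is 1 of the 4 and is also counted among the rises of the amino acid response. FOS, a subunit of AP-1, was at 5.57, 5.51, 5.71 and 5.32 at 24 h and at 3.02, 3.55, 3.74 and 3.86 at 6 h (1.99, adjusted p = 0.00291). EGR1, a zinc finger factor of the first wave, was at 8.69, 8.61, 8.47 and 8.34 at 24 h and at 7.14, 7.23, 7.02 and 7.29 at 6 h (1.35, adjusted p = 0.00208). Of 7 genes of the EGF receptor family tested, 3 rose. The ligand HBEGF was at 7.33, 7.40, 6.75 and 6.92 at 24 h and at 5.26, 5.72, 5.88 and 5.97 at 6 h (1.39), and the receptors ERBB3 and ERBB2 rose by 0.85 and 0.52. When arrays were left out in turn, the adjusted p reached 0.105 for ERBB2, 0.0588 for SPRY1 and 0.0501 for HBEGF.

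Of 21 genes of ribosome production tested, 5 fell and 0 rose. They encode factors that process ribosomal RNA and assemble ribosomes in the nucleolus. From 26 listed, 3 of the 21 were above 0 and the median change was -0.39. With the block 0 rose and 12 fell, and without replicates 1 the median was -0.42. NOP16 was at 11.92, 11.83, 11.71 and 11.67 at 24 h and at 12.65, 12.47, 12.54 and 12.36 at 6 h (-0.72, adjusted p = 0.00986). RRS1 was at 10.42, 10.48, 10.25 and 10.29 at 24 h and at 10.82, 11.04, 11.14 and 10.92 at 6 h (-0.62), and NIP7 averaged 10.52 ± 0.11 at 24 h and 11.14 ± 0.09 at 6 h (SD, n = 4 each, -0.62). The mean of the 21 members was 10.45 to 10.60 at 24 h and 10.82 to 10.95 at 6 h. Of 15 genes of polyamine and nucleotide synthesis, 2 fell and 0 rose (median -0.23). They were UMPS, which makes uridine monophosphate (-0.60), and ODC1, the first enzyme of polyamine synthesis, at 13.24, 13.02, 13.02 and 13.00 at 24 h and at 13.88, 13.64, 13.56 and 13.52 at 6 h (-0.58). Across the fits that each lacked 1 array, the adjusted p reached 0.0962 for ODC1, 0.0777 for UMPS, 0.0667 for RRS1 and 0.0569 for NIP7.

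Metallothioneins, small proteins that bind zinc and copper, fell at 24 h in 6 of 7 genes tested and rose in 0, with a median of -0.45 (7 of 7 under the block). MT1M was at 5.70, 4.72, 4.94 and 4.88 at 24 h and at 8.18, 7.68, 6.71 and 7.23 at 6 h. MT1F was at 13.62, 13.46, 13.55 and 13.45 at 24 h and at 14.36, 14.39, 14.03 and 14.13 at 6 h (-0.71), and MT1G fell by 0.49 on the log2 scale. The genes are near-identical copies that probes may not separate, so the 7 are not independent readings. Without 1 array at a time, the adjusted p reached 0.0601 for MT1G and 0.0581 for MT1F.

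**Figure D3:**
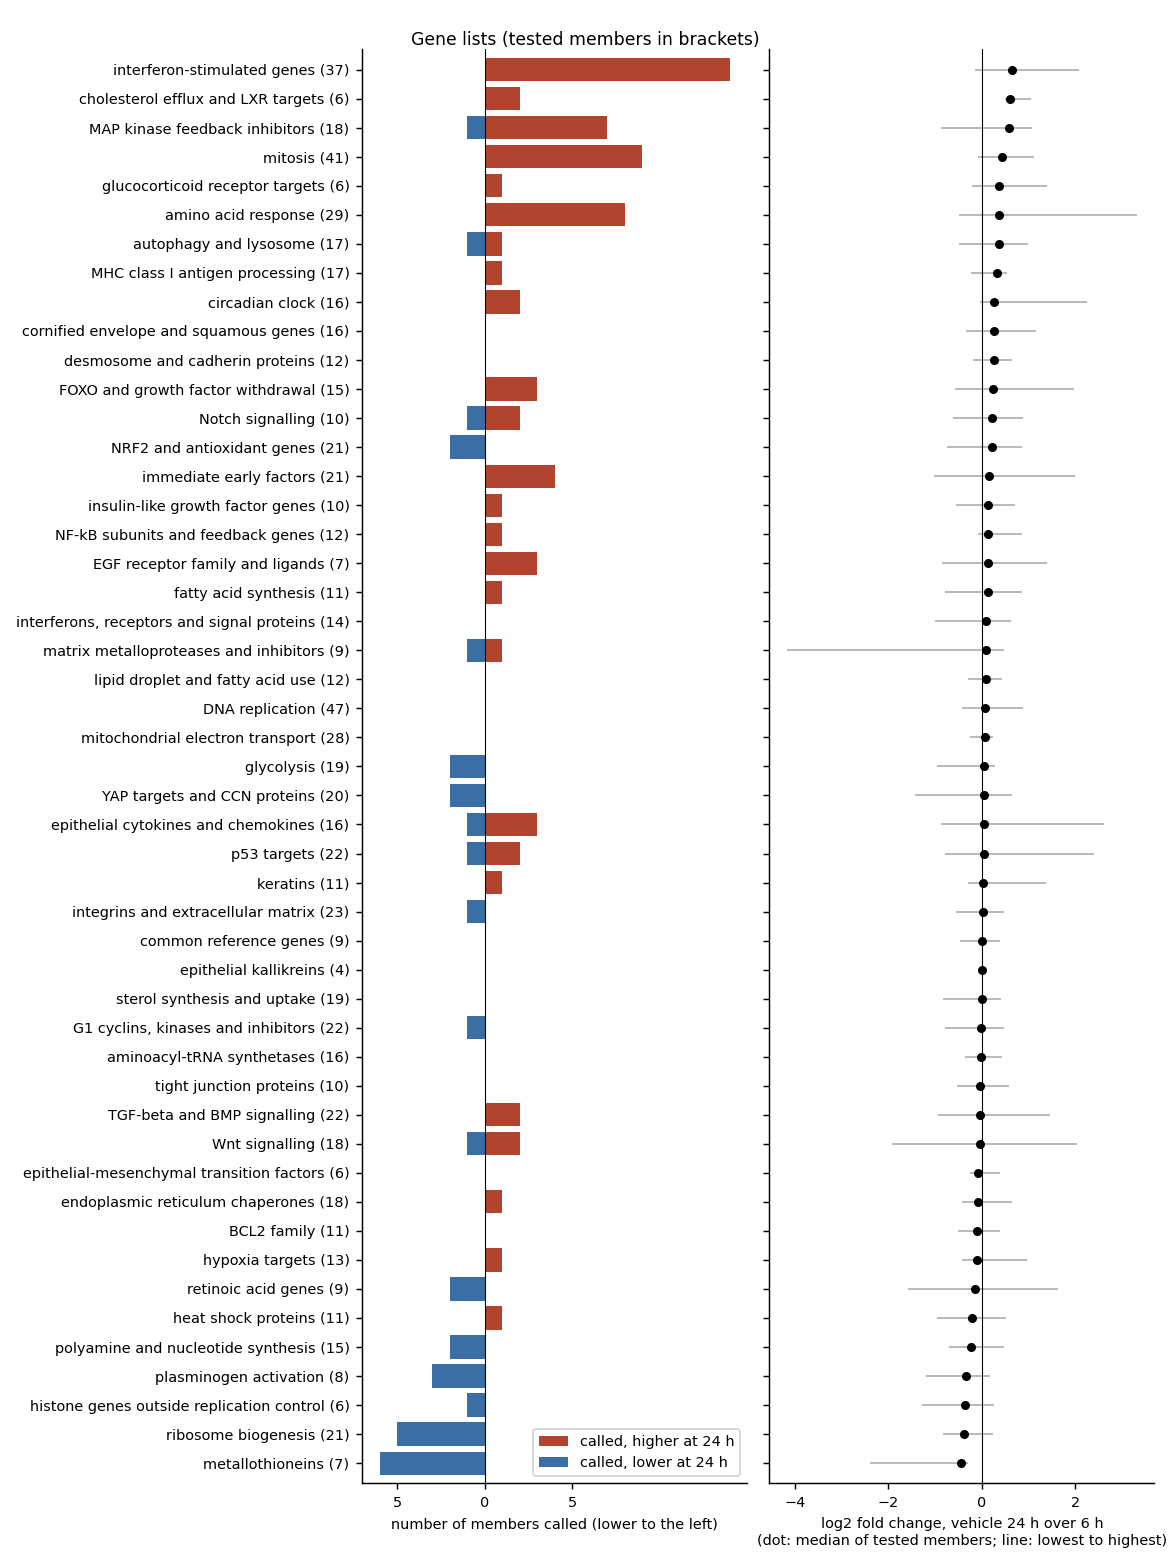
Number of members called higher or lower at 24 h (left) and the median, lowest and highest log2 fold change of the tested members, vehicle 24 h over 6 h (right), for 49 gene lists ordered by their median, with the number tested in brackets. The interferon-stimulated genes have the most calls (14 up) and the metallothioneins the lowest median (-0.45).

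Of 9 matrix metalloproteases and inhibitors tested, MMP3 fell and the inhibitor TIMP2 rose, with 11.60, 11.44, 11.45 and 11.42 at 24 h and 11.01, 11.05, 10.91 and 11.06 at 6 h (0.47). Of 8 genes of plasminogen activation, 3 fell and 0 rose (median -0.35). SERPINE2, an inhibitor of thrombin and urokinase, was at 10.95, 11.22, 11.06 and 11.02 at 24 h and at 11.91, 12.07, 12.27 and 12.17 at 6 h (-1.04, adjusted p = 0.00359). SERPINB8 and SERPINB5 (maspin) fell by 1.20 and 0.80 on the log2 scale. Of 20 YAP targets, 2 fell and 0 rose (median 0.04). F3, tissue factor of blood clotting, was at 10.77, 11.35, 10.83 and 10.99 at 24 h and at 11.90, 12.34, 12.86 and 12.56 at 6 h (-1.43), and NT5E, the ecto-enzyme that makes adenosine, changed by -0.76. SDC4, a heparan sulfate proteoglycan, was the only call among 23 integrins and matrix genes (-0.55). In the fits with 1 array left out, the adjusted p reached 0.127 for NT5E, 0.0896 for SERPINB5, 0.0686 for TIMP2, 0.0629 for SERPINB8 and 0.0582 for F3.

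Genes that answer growth factor and nutrient supply changed in part. TXNIP, which holds back glucose uptake, was at 13.52, 13.48, 13.31 and 13.55 at 24 h and at 11.39, 11.53, 11.18 and 11.90 at 6 h (1.96, adjusted p = 0.00208). By its 2 other probe sets it rose by 2.20 and 2.16. The FOXO list had 3 called rises and 0 falls among 15 genes (median 0.24), namely TXNIP, the repressor BCL6 (0.93) and PIK3IP1, an inhibitor of PI3 kinase (0.90). TSC22D3, the glucocorticoid-induced leucine zipper, was at 13.05, 12.97, 13.03 and 13.09 at 24 h and at 11.76, 11.64, 11.39 and 11.80 at 6 h (1.39, adjusted p = 0.00202), and was the only call among 6 glucocorticoid receptor targets (median 0.37). Of 6 genes of cholesterol efflux, 2 rose. APOE, a lipid carrier, was at 10.06, 9.22, 9.36 and 9.44 at 24 h and at 8.66, 8.40, 8.51 and 8.31 at 6 h (1.05), and the transporter ABCG1 rose by 0.82. SREBF1, the factor of fatty acid synthesis, rose by 0.85 (adjusted p = 0.00859), the only call among 11 genes of that pathway (median 0.13). Its 1 other tested probe set gave 0.07 (adjusted p = 0.86). Sterol synthesis and uptake had no call among 19 (median -0.01, 3 up and 6 down under the block). Of all genes, the block called 9.63% up and 8.56% down. SREBF2, the factor of the sterol pathway, was at 0.12 (adjusted p = 0.649), and INSIG1, which retains it, was at -0.84 (adjusted p = 0.139, 0.0112 under the block). When arrays were left out in turn, the adjusted p reached 0.115 for ABCG1, 0.0842 for APOE, 0.0639 for BCL6 and 0.0576 for PIK3IP1.

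Of 19 glycolytic genes, 2 fell and 0 rose (median 0.05). PDK1, which closes the entry of pyruvate to mitochondria, was at 7.07, 7.61, 7.36 and 7.52 at 24 h and at 8.17, 8.49, 8.36 and 8.38 at 6 h (-0.96), and HK2, the first enzyme of glycolysis, changed by -0.54. VEGFA, the angiogenic factor, rose by 0.96 and was the only call among 13 hypoxia targets, whose median was -0.12. It was at 10.15, 10.74, 10.47 and 10.54 at 24 h and at 8.95, 9.71, 9.69 and 9.72 at 6 h. HIF1A, the factor of the hypoxia response, was at -0.19 (adjusted p = 0.857). Of 21 antioxidant genes, 2 fell and 0 rose, SRXN1 (-0.75) and GCLM (-0.55), and NFE2L2, the factor that drives them, had a change of 0.40 (adjusted p = 0.521, 0.0362 under the block). The 28 genes of mitochondrial electron transport ranged from -0.25 to 0.24, with no call in either fit. Across the fits that each lacked 1 array, the adjusted p reached 0.136 for HK2, 0.127 for VEGFA and 0.125 for GCLM.

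Members of developmental pathways changed in both directions. Of 18 Wnt genes, WNT4 and the nuclear factor TCF7L2 (0.53) rose and DKK1 fell (median -0.04). Of the 5 other tested probe sets of TCF7L2, all dimmer, that at 0.565 was called and the rest gave 0.16 to 0.48 with no call. Of 10 Notch genes, the target HES1 and the ligand DLL1 rose, and LFNG, which modifies Notch, fell (-0.61). HES1 was at 8.45, 8.39, 8.32 and 8.49 at 24 h and at 7.61, 7.53, 7.52 and 7.47 at 6 h (0.88, adjusted p = 0.00227). DLL1 was at 10.19, 10.40, 10.24 and 10.28 at 24 h and at 9.26, 9.62, 9.78 and 9.82 at 6 h (0.66). Of 22 genes of TGF-beta and BMP signalling, the inhibitor SMAD6 (0.85) and the BMP target ID1 (0.66) rose (median -0.04). Of 9 retinoic acid genes, 2 enzymes that make retinoic acid fell. ALDH1A3 was at 8.79, 9.05, 8.85 and 9.04 at 24 h and at 10.34, 10.41, 10.80 and 10.51 at 6 h (-1.58, adjusted p = 0.00208), and RDH10 changed by -0.72. The 3 other tested probe sets of RDH10, all dimmer, gave -0.40, -0.15 and -0.03 with no call. Of 22 p53 targets, GDF15 and SESN2 rose and TIGAR fell (-0.78). Of 16 clock genes, DBP, an output factor of the clock, rose by 1.23 and NPAS2 by 0.49 (median 0.26), while CLOCK was at 0.00 (adjusted p = 0.999). The 4 other tested probe sets of NPAS2, all dimmer, gave 0.09 to 0.85 with no call. CLOCK was at 6.16 in replicate 1 and 7.85 to 8.10 in the other arrays at 24 h, and at 6.25 and 7.77 to 8.30 at 6 h. Without 1 array at a time, the adjusted p stayed under 0.05 for DKK1, HES1, ALDH1A3, GDF15 and SESN2, and reached 0.134 for ID1, 0.132 for SMAD6, 0.12 for DBP, 0.11 for DLL1, 0.104 for TIGAR, 0.1 for WNT4, 0.0987 for RDH10, 0.0819 for TCF7L2, 0.0755 for LFNG and 0.0746 for NPAS2.

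Epithelial differentiation genes had few calls. KRT15, a keratin of basal and progenitor cells, was at 12.35, 11.50, 11.51 and 11.85 at 24 h and at 10.69, 10.15, 10.05 and 10.85 at 6 h (1.37, adjusted p = 0.0264), and was the only call among 11 keratins (median 0.02). No call was made among 16 cornified envelope genes, 12 desmosome and cadherin genes or 10 tight junction genes in the test without the block. Under the block 3 of the first rose and 1 fell, 3 of the second rose and 1 of the last fell. In that fit 9.63% of all genes rose and 8.56% fell. Among 18 endoplasmic reticulum chaperones HERPUD1 alone rose (0.64), and among 11 heat shock genes the cochaperone BAG3 alone rose (0.46). Of 17 autophagy genes WIPI1 rose (0.63) and MAP1LC3B fell (-0.49), with a median of 0.36. Of 10 insulin-like growth factor genes IGFBP2, a binding protein, rose (0.71). The 9 common reference genes had no call (median 0.00). ACTB was at 15.87, 15.87, 15.82 and 15.83 at 24 h and at 15.92, 15.89, 15.97 and 15.94 at 6 h, and TFRC, with the largest change of the list, was at -0.46 (adjusted p = 0.269). In the fits with 1 array left out, the adjusted p reached 0.108 for WIPI1, 0.105 for HERPUD1, 0.103 for IGFBP2, 0.0897 for KRT15, 0.0863 for MAP1LC3B and 0.0761 for BAG3.

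The same hours with 1,25(OH)2D were read from 8 other arrays. Of 26000 probe sets, 878 (3.38%) changed from 6 to 24 h with 1,25(OH)2D and 364 (1.4%) had a change that differed between 1,25(OH)2D and vehicle. The 878 were 150 under the replicate block, 1076 and 932 without replicates 1 and 4 at 24 h, and 375 to 550 without any other single array. Of the 310 genes that rose in vehicle, 255 (82.3%) were also above 0 with 1,25(OH)2D, where 54.6% of all genes were, and of the 280 that fell, 245 (87.5%) were below 0, against 45.4%. With 1,25(OH)2D, 256 genes rose (2.13%) and 238 fell (1.98%). The 78 genes called up in both were 30.5% of these rises and 25.2% of those in vehicle. The 56 called down in both were 23.5% of the falls with 1,25(OH)2D and 20.0% of those in vehicle. Across all 12010 genes the changes had a Pearson correlation of 0.494, a description over genes that are not independent. MMP3 (-4.51 with 1,25(OH)2D and -4.18 in vehicle), CHAC1 (3.80 and 3.15), STC2 (3.13 and 3.31) and TXNIP (1.69 and 1.96) were among the large changes on both sides, and their differences were not called.

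Among all genes, 229 (1.91%) had a change that differed between 1,25(OH)2D and vehicle, a test that uses the vehicle arrays again. CCL2 stayed at the bottom of the scale, at 2.67 ± 0.10 at 24 h and 2.60 ± 0.10 at 6 h with 1,25(OH)2D (SD, n = 4), and the difference of its changes, 1,25(OH)2D minus vehicle, was -2.54 (adjusted p = 1.06e-05). HCAR3 and FOS were high at 6 h with 1,25(OH)2D and fell, at 4.44 ± 0.68 and 6.89 ± 0.53 at 24 h against 7.43 ± 0.18 and 8.23 ± 0.14 at 6 h (SD, n = 4). AKAP12, NANOS1 and RGCC were at the vehicle level or near it at 24 h with 1,25(OH)2D (2.45, 3.47 and 3.28), and higher at 6 h (9.18, 8.56 and 8.27), so their falls were larger there, with differences of -2.69, -1.85 and -1.82. KCNJ15 was as low at 6 h with 1,25(OH)2D (5.18 ± 0.13) as at 24 h (5.29 ± 0.52), with a change of 0.11 (adjusted p = 0.765). HES1 fell by 1.30 with 1,25(OH)2D (difference -2.17, adjusted p = 4.50e-07). Of the lists, 0 of 41 mitotic genes, 1 of 37 interferon-stimulated genes and 3 of 21 ribosome genes had a called difference. The share among all genes was 1.91%. The medians of these lists with 1,25(OH)2D were 0.01, 0.12 and 0.04, against 0.42, 0.65 and -0.39 in vehicle. Differences between list medians were not tested. Other lists had more called differences, among them 5 of 21 immediate early factors, 4 of 18 MAP kinase feedback inhibitors and 4 of 18 Wnt genes. No interferon-stimulated gene was called up with 1,25(OH)2D, and the difference from vehicle was called for 1 gene of the list.

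**Figure D4:**
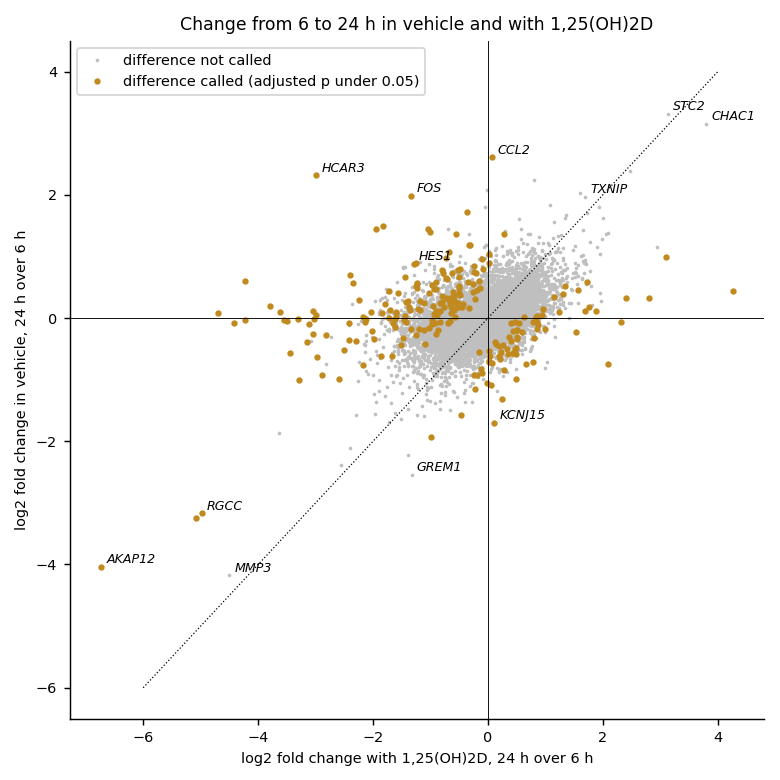
Log2 fold change from 6 to 24 h of 12010 genes with 1,25(OH)2D (horizontal) and in vehicle (vertical), with gold points where the difference of the changes had an adjusted p under 0.05 and a dotted line of equal change. MMP3, STC2 and TXNIP lie near the line, while CCL2 (2.61 in vehicle) lies near 0 with 1,25(OH)2D and HCAR3 has opposite signs.

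At 48 h the vehicle cultures had spent their last 24 h in renewed medium. Between 48 h and 24 h, 169 probe sets (0.65%) differed, 50 higher and 119 lower at 48 h. The count was 0 with the replicate block (3356 at an unadjusted p under 0.05), 5940 without replicate 1 at 24 h and 1 to 38 without any other single array, and comes from arrays also used for the change from 6 to 24 h. STC2, CHAC1 and ATF3 were at 9.57 ± 0.38, 9.50 ± 0.21 and 6.93 ± 0.15 at 48 h (SD, n = 4), and CCL2 at 5.70 ± 0.43. MMP3, AKAP12 and GREM1 were at 2.48, 2.38 and 2.15, as low as at 24 h. FOS was at 4.73 ± 0.47. The interferon-stimulated genes averaged 6.91, 7.58 and 7.84 in vehicle at 6, 24 and 48 h, the amino acid response 10.09, 10.67 and 11.07, and the ribosome genes 10.89, 10.53 and 10.47. Calls from 24 to 48 h included a further rise of TSC22D3 (13.92 ± 0.12 at 48 h), a further fall of DKK1 (8.75 ± 0.22) and a fall of SPRY2 (9.02 ± 0.09). Of the amino acid response genes, 2 of 29 were called up and 0 down in this step. Of the 37 interferon-stimulated genes, 0 were called in either direction.

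**Figure D5:**
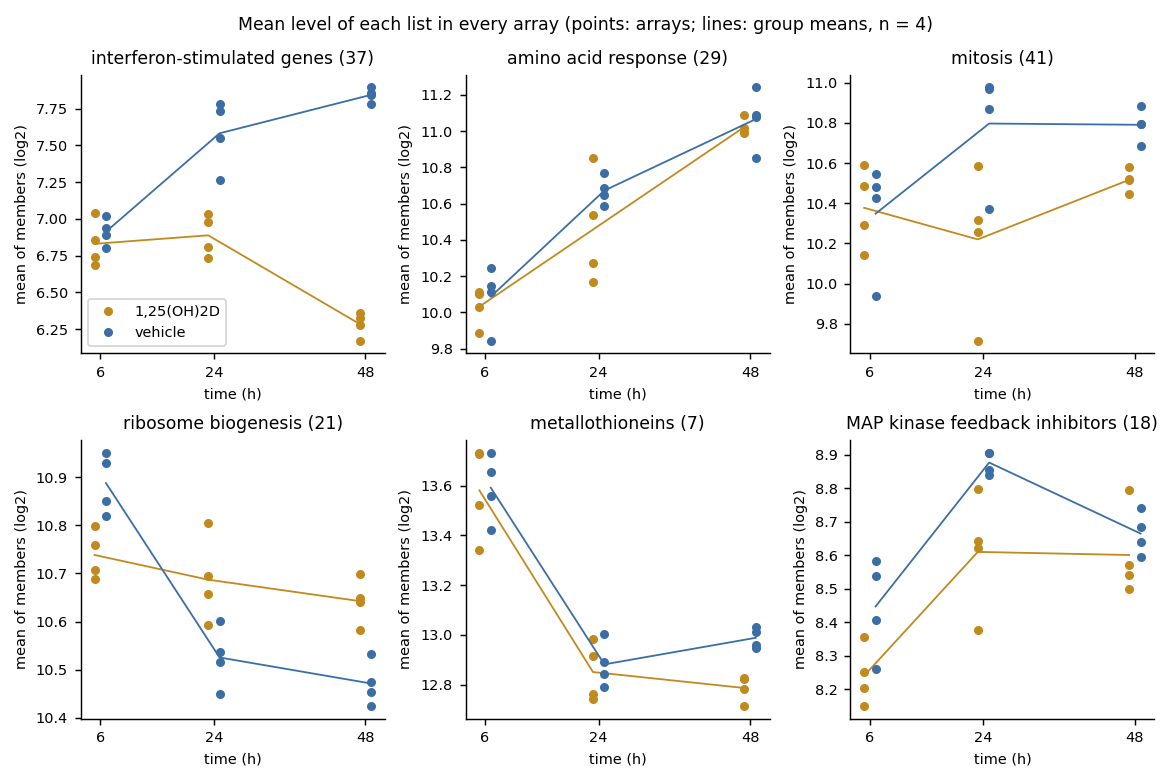
Mean log2 intensity of the tested members of 6 gene lists in every array at 6, 24 and 48 h, with 1,25(OH)2D (gold) and vehicle (blue), points for arrays and lines through group means of 4 arrays. In vehicle the interferon-stimulated genes average 6.91, 7.58 and 7.84, and the metallothioneins 13.59, 12.88 and 12.99.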

How the data were processed

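RNA of each culture was hybridized to an Affymetrix U133 Plus 2.0 array, which reads most transcripts with 1 or more probe sets. The authors corrected the background, normalized all 24 arrays together and used gcRMA to summarise the probes. The deposited log2 intensities were taken as they stand (version of gcRMA not given in the sources used here). The table holds 54675 probe sets, of which 62 are controls and were left out. Probe sets were ranked by the level that 3 arrays of their highest group attained, and the top 26000 were tested (lowest value kept 3.203). Of these, 21891 carry 1 gene symbol, 1087 several and 3022 none in the platform annotation, and the brightest with 1 symbol stands for each of 12010 genes. Array signals carry no depth, and the number of arrays limits the precision. The mean SD within groups was 0.259 at 24 h and 0.27 at 6 h.

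The 4 vehicle arrays at 24 h were compared with the 4 at 6 h in limma 3.58.1 (lmFit and eBayes) under R 4.3.3. The call was an adjusted p under 0.05 (Benjamini-Hochberg, over all 26000 probe sets), and a log2 fold change is the mean at 24 h minus the mean at 6 h. The difference from 1,25(OH)2D was an interaction term over 16 arrays. On simulated data with 26000 probe sets, 32.8% of changes of 1.5-fold, 64.2% of 2-fold and 89.4% of 4-fold were recovered, with 8 false calls among 132. The simulated noise was independent between probe sets and arrays. The real arrays share deviations, with replicate 1 apart, so these rates need not hold for them. Replicate numbers come from the labels, which do not say what they share. The deviations of same-numbered arrays from their group means correlated at 0.823, 0.416, 0.268 and 0.633 (replicates 2 to 4 across numbers at 0.284 to 0.688), so the number was also fitted as a block. Whether the cultures were handled as such sets is not given in the sources used here.

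Genes were grouped in 49 lists (933 different genes, 778 tested). The lists hold 946 entries, so some genes, such as ATF3, are counted in more than 1 list. The members and lists were chosen with earlier results of these data known, so they are described by counts and medians. Named genes are the 12 largest rises and falls among called genes whose groups do not overlap, up to 3 rises and 3 falls a list, the member with the largest change or the brightest of lists without a call, factors that head a list, and cell type markers, with ASNS added after its values were seen. Of 202 groups of values of the named genes, the highest and lowest array were tested with Dixon's ratio. Promoters (250 bases before to 50 after the start) come from RefSeq, and 9851 genes matched by symbol. Alternatives were other filters, normalizations, an offset of 32, the block, array weights, SAM, a fit of all 24 arrays, and each array left out. The other software was scipy 1.17.1, pandas 2.3.3, numpy 2.4.6 and matplotlib 3.10.9 under Python 3.11.15.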

Additional observations from a re-analysis of the deposited data

Results flagged for a closer look

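Among 202 groups of 4 arrays of the named genes, 16 had an array far from the other 3 by Dixon's ratio, which chance gives in about 1 of 20 groups. Replicate 1 was that array in 14 of the 16, 10 at 24 h and 4 at 6 h. At 24 h replicate 1 was high for CHAC1 (8.94, others 8.29 to 8.40), WNT4 (7.02, others 5.66 to 5.70), ODC1 (13.24, others 13.00 to 13.02), TIMP2 (11.60, others 11.42 to 11.45), KRT14 (16.12, others 16.05 to 16.06), IGFBP2 (11.51, others 11.13 to 11.15) and CDT1 (11.77, others 11.02 to 11.05). It was low for SPRY2 (9.49, others 9.65 to 9.68), MAP1LC3B (10.37, others 10.60 to 10.62) and CLOCK (6.16, others 7.85 to 8.10). At 6 h replicate 1 was high for CDC25C (8.89, others 8.54 to 8.60) and IGFBP2 (10.84, others 10.39 to 10.44), and low for VEGFA (8.95, others 9.69 to 9.72) and HIF1A (11.40, others 12.36 to 12.47). Replicate 3 at 6 h was high for GREM1 (5.49, others 4.37 to 4.50) and HK2 (9.09, others 8.69 to 8.75).

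For 20 of 101 named genes the change from 6 to 24 h differed between 1,25(OH)2D and vehicle in the interaction test (adjusted p under 0.05). Among all genes tested, 229 of 12010 (1.91%) did. The named genes were mostly chosen by their change in vehicle, and the test uses the same vehicle arrays. Their count and signs are therefore tilted by that choice and are not a result about these genes as a set. The difference, 1,25(OH)2D minus vehicle on the log2 scale, was below 0 for HCAR3 (-5.30), FOS (-3.33), AKAP12 (-2.69), CCL2 (-2.54), HBEGF (-2.39), HES1 (-2.17), GRB7 (-2.09), CXCL14 (-1.93), NANOS1 (-1.85), RGCC (-1.82), TCF7L2 (-1.51), DLL1 (-1.39), NFKBIA (-1.09), IL1B (-0.67) and BAG3 (-0.65). It was above 0 for KCNJ15 (1.81), DKK1 (0.94), NOP16 (0.80), DUSP7 (0.78) and RRS1 (0.66). Of these, HCAR3, FOS, HES1, DLL1 and TCF7L2 rose in vehicle (2.31, 1.99, 0.88, 0.66 and 0.53) and fell with 1,25(OH)2D, with changes there of -2.99, -1.34, -1.30, -0.73 and -0.98, each called in its own comparison.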

How the results depend on the processing

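The count of probe sets that differed between 24 h and 6 h in vehicle, 1124 (513 up and 611 down), moved by over 1.5 times with several choices. It was 4154 (1936 and 2218) with the replicate block, 4136 (1944 and 2192) without replicate 1 of both vehicle groups, 6093 (2878 and 3215) with array weights, 3835 (1813 and 2022) in SAM, 2033 (1039 and 994) in a fit of all 24 arrays and 670 (291 and 379) with arrays centred on their medians. Means of the probe sets of each gene gave 640 of 12010 genes (339 and 301). It was 869 with no filter, 1006 with the stricter filter, 1106 with the mean filter, 1104 after a second quantile normalization, 1327 with the offset and 885 with the trend and robust options. With 1 array left out it was 258 to 1655 (137 to 739 up, 121 to 916 down). The differences between 1,25(OH)2D and vehicle numbered 364 probe sets, 550 with all 24 arrays and 219 after centring. From 24 to 48 h the 169 became 82 with all 24 arrays, 103 with no filter and 0 under the block, and 1 to 5940 with 1 array left out. With 1,25(OH)2D the 878 became 4345 with all 24 arrays and 150 under the block, and 375 to 1076 with 1 array left out. The causes of these shifts were not tested. No called gene named in the text turned its direction. Of those not called, CLOCK (-0.0017) was 0.0097 after centring, 0.0018 with the offset, 0.0279 without replicates 1, 0.0532 with array weights and -0.435 to 0.461 with 1 array left out, HIF1A (-0.19) was -0.449 to 0.0629 with 1 array left out, and after a second quantile normalization KRT5 was -0.0186 and KRT14 0. Of 89 called, 89 kept the call under the block, 88 without replicates 1, 57 after centring, 67 with no filter and 81 in means of probe sets, and 36 kept it in all 8 fits with 1 array left out. Of the 49 list medians, 1 moved by more than the spread between arrays, in the means of probe sets. The block changed the counts of calls by over 1.5 times for 35 lists, and added calls for 3 named genes, CDT1, INSIG1 and NFE2L2. Dim genes carry the background left by the array processing, which limits their folds.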
